A study of Mus musculus with 24 samples.

Results

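The genes described here are 43 proteasome genes, chosen by name as 1 row each of the deposited table of counts, which held 43430 gene IDs. They are the alpha ring (Psma1 to Psma7), the constitutive beta ring (Psmb1 to Psmb7), the 3 induced catalytic subunits Psmb8, Psmb9 and Psmb10, the 6 ATPases of the cap (Psmc1 to Psmc6), 11 other cap subunits of the Psmd series, the 4 activator genes Psme1 to Psme4, the inhibitor gene Psmf1 and the 4 assembly chaperones Psmg1 to Psmg4. Each of the 43 symbols matched 1 gene ID, and all 43 passed the filter on low counts. The libraries were made from poly(A) RNA of alveolar macrophages sorted from C57BL/6J mouse lungs, 4 libraries in each of 6 groups. Naive Siglec F-high cells came from young (8 to 12 weeks) and old (over 18 months) mice. Siglec F-high and Siglec F-low cells came from young and from old mice 28 days after asbestos. No naive Siglec F-low group was among the samples, and the labels did not say which kind of asbestos was given or whether the 4 libraries of a group came from separate mice. P-values therefore measure only the spread between these libraries.

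The proteasome degrades proteins that carry ubiquitin. Its barrel-shaped 20S core is built of outer alpha and inner beta rings, and the proteolytic sites lie in the beta subunits encoded by Psmb5 (chymotrypsin-like), Psmb6 (caspase-like) and Psmb7 (trypsin-like). Interferon-gamma induces Psmb8, Psmb9 and Psmb10, whose products take the places of those subunits in the immunoproteasome and favour peptides for MHC class I, and Psme1 and Psme2, which encode the PA28 activator. The 19S cap binds the substrate, removes its ubiquitin and unfolds it with a ring of ATPases.

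Library totals ran from 13423080 to 18124526 counts in 22 of the 24 libraries, which detected 17069 to 18820 genes each, and rRNA-related genes made up 0.302 to 0.765% of a total. The 43 members took 0.342 to 0.434% of the counts in these 22 libraries. The other 2 libraries stood apart. Each was the replicate numbered 3 among the Siglec F-high cells taken after asbestos, one young and one old. The young one held 11889517 counts on 12528 genes, and 0.839% of its counts were on the members. The old one held 3894699 counts, 71.6% of them rRNA-related, and 0.0649% were on the members. Values below are from the 22 libraries, with the fit of all 24 beside them, and these libraries leave 3 in each asbestos Siglec F-high group. Levels are TMM-scaled CPM, the counts of a gene scaled to the library's total. Siglecf itself was at 461 to 651 CPM in the 14 Siglec F-high libraries and at 156 to 309 CPM in the 8 Siglec F-low libraries, so the sorts matched their labels. Resident macrophage markers were above 0 in every group. In bulk RNA of sorted cells, fewer cells of a type and less RNA per cell cannot be told apart.

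In the fit of 22 libraries no member passed the test between ages or between asbestos and naive Siglec F-high cells of young mice. Between asbestos and naive Siglec F-high cells of old mice 1 member passed, Psmd8. A small set rose in the Siglec F-low cells of asbestos-exposed lungs, led by the cap gene Psmd8 and the catalytic core genes Psmb5 and Psmb6. The induced catalytic genes Psmb8, Psmb9 and Psmb10 passed the test in none of the 9 comparisons of 2 groups. No member was called lower in any of them. In the comparisons of Siglec F-low with naive cells, young and old, 12 and 7 of 43 members were called, shares of 27.9% and 16.3%. Of all genes tested 18.3% and 15.9% were called higher there (34.7% and 30.7% in either direction). The old share was near this background, and the young one above it was not tested against it and rests on single libraries, as given below. Calls were made with edgeR's quasi-likelihood test where the Benjamini-Hochberg adjusted p, taken over all 13629 genes tested, lay below 0.05. Adjusted p-values are from this test unless another is named.

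**Figure D1:**
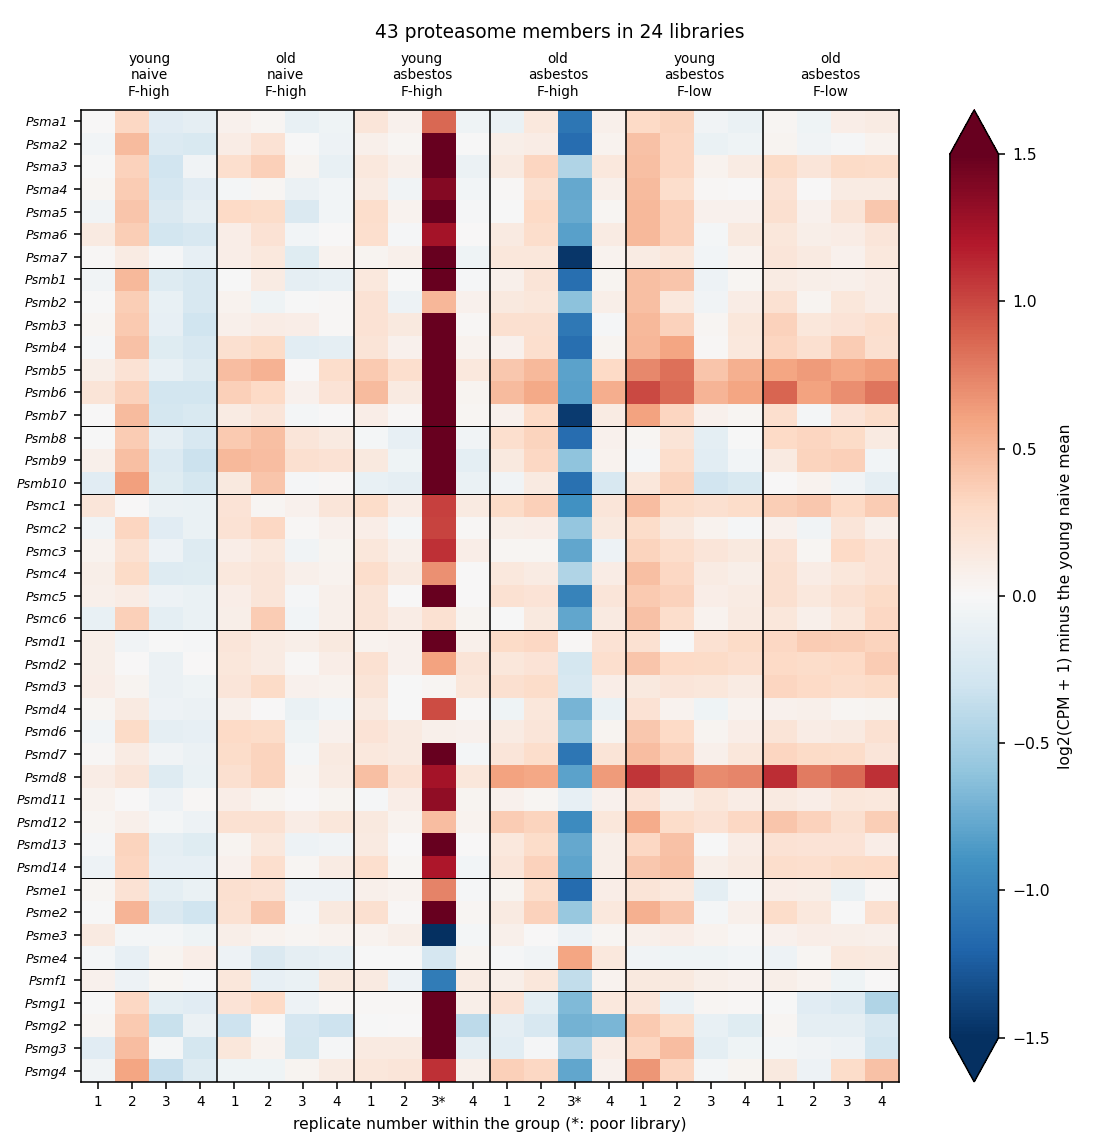
Each cell is the log2(CPM + 1) of 1 of 43 members (rows, in blocks by class) in 1 of 24 libraries (columns), minus the mean of the 4 young naive libraries; colours stop at 1.5 in each direction. The rows Psmd8, Psmb5 and Psmb6 are red through the 8 Siglec F-low libraries, and the 2 starred columns stand apart from all others, one mostly red and one mostly blue.

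Promoter sequences are shown for the 3 genes with the most calls, as the stretches upstream of genes that rose together. They are RefSeq sequences of GRCm38.p6, 5′ to 3′ on the gene's strand, without exon bases, and capitals mark the letters TGACNNNGC, the core of the antioxidant response element. Psmb5 lies at chr14:54614119-54618022 on the minus strand and its stretch at chr14:54618023-54618155. Psmb6 lies at chr11:70525367-70527858 on the plus strand and its stretch at chr11:70525197-70525356. Psmd8 lies at chr7:29174188-29180701 on the minus strand and its stretch at chr7:29180702-29180833.
Psmb5: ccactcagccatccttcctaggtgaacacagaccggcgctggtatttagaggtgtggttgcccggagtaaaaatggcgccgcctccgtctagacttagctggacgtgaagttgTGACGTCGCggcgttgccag
Psmb6: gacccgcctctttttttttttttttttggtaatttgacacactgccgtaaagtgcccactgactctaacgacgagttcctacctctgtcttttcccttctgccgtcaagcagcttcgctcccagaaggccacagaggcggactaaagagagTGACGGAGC
Psmd8: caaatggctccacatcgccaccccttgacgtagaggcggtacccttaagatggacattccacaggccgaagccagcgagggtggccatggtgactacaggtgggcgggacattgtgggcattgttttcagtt

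Windows from 250 bases before to 50 after the start site were found for 36 of the 43 members, 39 windows in all, and 4 motifs were searched on both strands. TGACNNNGC (reverse GCNNNGTCA) was in 5 of the 39 windows (12.8%) and in 12.4% of 32851 windows of all genes; the 5 were Psmb5, Psmb6, Psmc6, Psmd12 and Psme4. TTCNNNGAA, the gamma-activated site, was in 3 windows (7.69%, against 8.30%), those of Psmb8, Psmd2 and Psmg1. The paired site of interferon regulatory factors was in 4 windows (10.3%, against 3.44%), those of Psmb3, Psmd4, Psme1 and Psmg4. CCAAT (reverse ATTGG), the box bound by NF-Y, was in 12 windows (30.8%, against 37.4%). The Psmd8 window held none of these letters. A match is a run of letters, not a measured binding site, and the motifs can overlap.

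Among the core genes, Psmb6 had the highest level per kilobase of transcript of all 43 members in each of the 6 groups, with a mean of 126 CPM per kilobase in young naive cells and 208 in both Siglec F-low groups. The lowest in each group was Psmf1, at 7.42 to 8.05 CPM per kilobase. Psmd8 was second to Psmb6 in the old asbestos Siglec F-high group (138 CPM per kilobase) and in both Siglec F-low groups (166 in young and 178 in old).

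Psmb5, the chymotrypsin-like subunit, was at 61.9, 67.4, 53.4 and 50.7 CPM in the young naive libraries and at 80.2, 83.3, 58.0 and 69.8 CPM in the old naive ones. After asbestos it was at 76.3, 69.2 and 64.7 CPM in young Siglec F-high cells, at 77.0, 81.3 and 71.3 CPM in old Siglec F-high cells, at 96.3, 103, 77.6 and 84.3 CPM in young Siglec F-low cells and at 87.8, 90.6, 87.1 and 90.1 CPM in old Siglec F-low cells. All 8 Siglec F-low libraries were above the 4 young naive ones and above the 6 Siglec F-high asbestos ones of their own age, while the old naive libraries overlapped with the young naive ones. Psmb5 was higher in young Siglec F-low than in young naive cells, by 0.63 ± 0.11 (log2 fold change ± SE, adjusted p = 6.73e-05), and higher than in young asbestos Siglec F-high cells, by 0.37 ± 0.12 (adjusted p = 0.0391). The latter call was lost without any of 4 of the 7 libraries compared (adjusted p up to 0.178). In old mice it was 0.29 ± 0.11 higher in Siglec F-low than in naive cells (adjusted p = 0.0433), a call lost without any of 6 of the 8 libraries compared (adjusted p up to 0.178). Between the old asbestos sorts the difference was 0.22 ± 0.12 (adjusted p = 0.271). In a fit with replicate number as a block it was 0.28 and was called (adjusted p = 0.0204). Whether same-numbered libraries came from the same mice was not known here. Old naive cells were 0.32 ± 0.11 above young naive cells, with an adjusted p of 0.0679; DESeq2 gave 0.0471.

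Psmb6, the caspase-like subunit, was at 113, 126, 81.3 and 81.1 CPM in young naive libraries and at 127, 122, 103 and 114 CPM in old naive ones. After asbestos the Siglec F-high cells were at 138, 108 and 102 CPM in young and at 137, 147 and 144 CPM in old mice. The Siglec F-low cells were at 196, 178, 141 and 149 CPM in young and at 181, 149.9, 160.2 and 172 CPM in old mice. The Siglec F-low libraries did not overlap with the naive or the Siglec F-high ones of the same age. The difference was 0.73 ± 0.13 from young naive cells (adjusted p = 0.000125), 0.51 ± 0.13 from old naive cells (adjusted p = 0.00403) and 0.52 ± 0.14 from young asbestos Siglec F-high cells (adjusted p = 0.0165). Between the old asbestos sorts it was 0.22 ± 0.14 (adjusted p = 0.38). The call between the young sorts was lost without Siglec F-high replicate 2 or 4 or Siglec F-low replicate 1, with an adjusted p of up to 0.11. Psmb7, the trypsin-like subunit, was at 71.5 to 120.3 CPM in young naive and 87.5 to 131 CPM in young Siglec F-low libraries, which overlapped. Its log2 difference there was 0.24 ± 0.13 (adjusted p = 0.167). The other 4 constitutive beta genes and the 7 alpha ring genes were not called in any comparison.

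**Figure D2:**
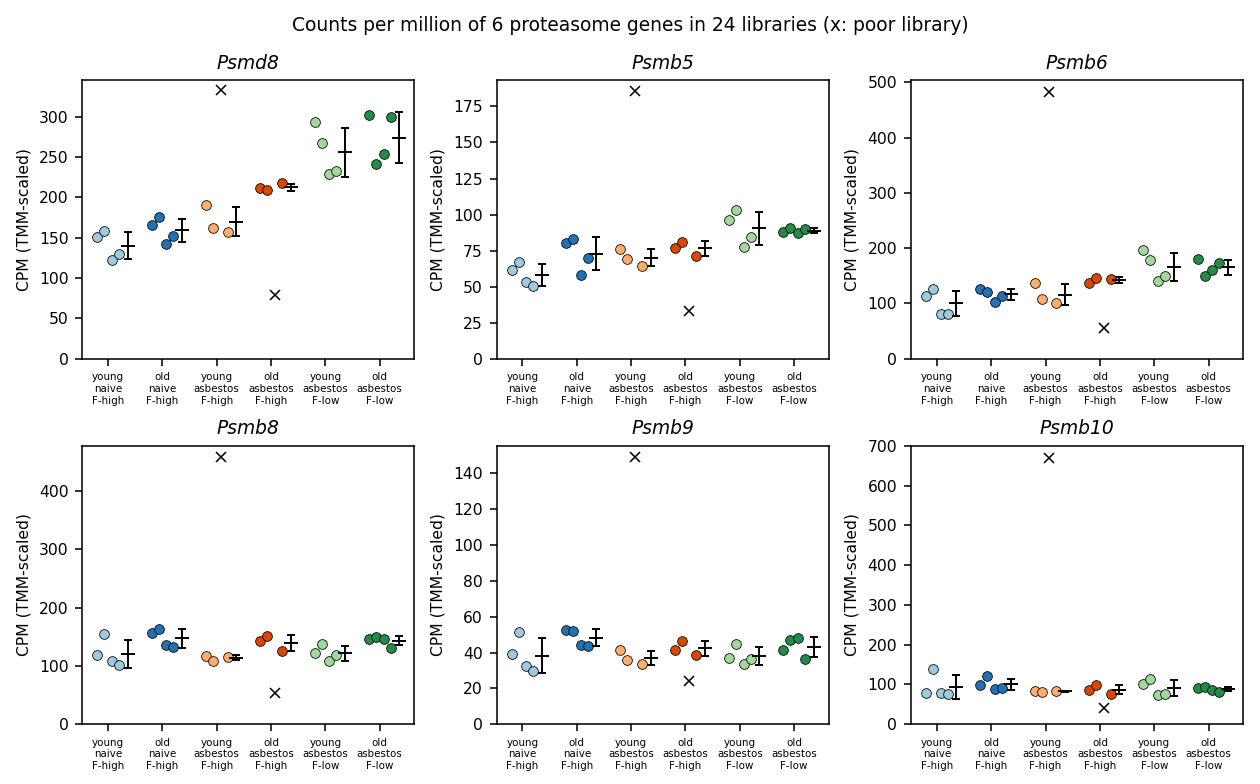
CPM (vertical axis, from 0) of Psmd8, Psmb5, Psmb6, Psmb8, Psmb9 and Psmb10 in each library of the 6 groups (horizontal axis); bars give mean ± SD of the 22 libraries and crosses mark the 2 poor ones. In the upper panels the Siglec F-low groups stand highest (for Psmd8, 228 to 302 CPM, against 122 to 158 CPM in young naive libraries), and in the lower panels the Siglec F-low libraries overlap with the naive ones of the same age.

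Psmb8, which replaces Psmb5 in the immunoproteasome, was at 119, 156, 109 and 101 CPM in young naive libraries and at 157, 164, 136 and 132 CPM in old naive ones. After asbestos it was at 117, 109 and 115 CPM (young) and 142, 151 and 125 CPM (old) in Siglec F-high cells, and at 122, 137, 108 and 119 CPM (young) and 147, 149, 146 and 132 CPM (old) in Siglec F-low cells. Old libraries were on average above young ones in each setting, by 0.28 ± 0.11, 0.29 ± 0.12 and 0.24 ± 0.11 on the log2 scale, with adjusted p-values of 0.114, 0.168 and 0.2. Of these 3 pairs of ages only the asbestos Siglec F-high groups did not overlap. Siglec F-low and naive cells differed by 0.01 ± 0.11 in young and -0.04 ± 0.11 in old mice. Psmb9, the counterpart of Psmb6, was at 29.7 to 51.4 CPM in young naive, 43.7 to 52.6 CPM in old naive, 33.6 to 41.3 CPM in young and 38.8 to 46.7 CPM in old asbestos Siglec F-high, and 33.3 to 44.9 CPM in young and 36.3 to 48.0 CPM in old Siglec F-low libraries. All of these ranges overlapped with those of the other age. The age difference in naive cells was 0.34 ± 0.14 (adjusted p = 0.138). Psmb10, the counterpart of Psmb7, was at 74.9 to 138 CPM in young naive and 89.0 to 120.2 CPM in old naive libraries, and at 73.4 to 114 CPM in the asbestos groups. Its differences lay between -0.20 and 0.14, with no adjusted p under 0.418. Psmb8 (chr17:34197721-34201454) and Psmb9 (chr17:34181987-34187764) are neighbours in the MHC, and Psmb10 lies on another chromosome.

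The ratio of an induced gene to its constitutive partner was also taken within each library. In asbestos against naive Siglec F-high cells, where none of the 6 genes was called, the differences of Psmb8, Psmb9 and Psmb10 were -0.16 to -0.05 in young and -0.20 to -0.08 in old mice, and those of Psmb5, Psmb6 and Psmb7 were 0.02 to 0.27 in young and 0.07 to 0.29 in old mice. The log2 ratio of Psmb8 to Psmb5 was 1.05 ± 0.11 (SD, n = 4) in young naive and 1.02 ± 0.14 (n = 4) in old naive cells. It was 0.70 ± 0.11 (n = 3) and 0.86 ± 0.05 (n = 3) in young and old asbestos Siglec F-high cells, and 0.43 ± 0.07 (n = 4) and 0.69 ± 0.10 (n = 4) in young and old Siglec F-low cells. All 8 naive libraries (0.92 to 1.23) were above all 14 asbestos libraries (0.35 to 0.89), and the 4 young Siglec F-low libraries were below all others. The log2 ratio of Psmb9 to Psmb6 was -1.40 ± 0.11 and -1.27 ± 0.08 in young and old naive cells (n = 4 each), -1.65 ± 0.08 and -1.75 ± 0.12 in the Siglec F-high asbestos groups (n = 3 each), and -2.13 ± 0.19 and -1.95 ± 0.29 in the Siglec F-low groups (n = 4 each). Here too the naive libraries (-1.53 to -1.22) did not overlap with the asbestos ones (-2.40 to -1.60). The log2 ratio of Psmb10 to Psmb7 was 0.06 ± 0.14 and 0.13 ± 0.11 in the naive groups and between -0.19 and -0.10 in the means of the 4 asbestos groups. The old naive libraries (0.07 to 0.29) were above those of both asbestos Siglec F-high groups (-0.30 to -0.06), while the young naive libraries (-0.12 to 0.20) overlapped with each asbestos group. These ratios need no library scaling; they are mRNA ratios of a pair and were not tested. In the poor libraries the Psmb8 to Psmb5 ratio was 1.30 (young) and 0.71 (old, from 38 counts of Psmb5), and the Psmb9 to Psmb6 ratio was -1.69 and -1.19, so the separation of naive from asbestos libraries did not hold with them.

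**Figure D3:**
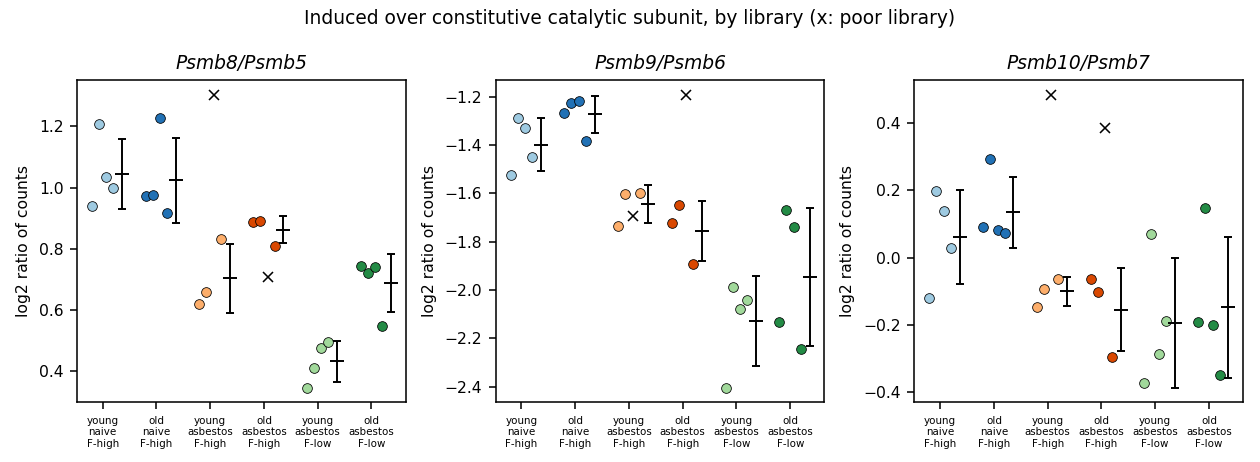
Log2 ratio of counts of each induced catalytic gene to its constitutive partner (vertical axes) in each library of the 6 groups, with mean ± SD of the 22 libraries; crosses mark the 2 poor libraries. For Psmb8 to Psmb5 the 8 naive libraries lie at 0.92 to 1.23 and the 14 asbestos ones at 0.35 to 0.89, and for Psmb10 to Psmb7 the naive and asbestos libraries overlap (naive -0.12 to 0.29, Siglec F-low up to 0.15).

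Psmd8, a non-ATPase subunit of the cap, was called in 5 comparisons. It was at 151, 158, 122 and 129.9 CPM in young naive and 165, 176, 142 and 153 CPM in old naive libraries. After asbestos it was at 191, 162 and 157 CPM in young and 212, 209 and 218 CPM in old Siglec F-high cells. In Siglec F-low cells it was at 294, 268, 228 and 233 CPM in young and 302, 241, 253 and 299.7 CPM in old mice. The order in both ages was naive, asbestos Siglec F-high, Siglec F-low, and only young naive and young asbestos Siglec F-high libraries overlapped within an age. From naive to Siglec F-low the log2 difference was 0.87 ± 0.10 in young (adjusted p = 5.09e-07) and 0.79 ± 0.10 in old mice (adjusted p = 1.95e-06). Between the sorts it was 0.59 ± 0.11 in young (adjusted p = 0.000746) and 0.37 ± 0.11 in old mice (adjusted p = 0.0278), and from old naive to old asbestos Siglec F-high cells 0.42 ± 0.11 (adjusted p = 0.0267). The young asbestos Siglec F-high cells were 0.28 ± 0.11 above naive (adjusted p = 0.15), and the tests of whether these responses differed with age gave 0.14 ± 0.15 for asbestos and -0.22 ± 0.15 for the sort, with adjusted p-values of 0.998 and 0.891. The calls from naive to Siglec F-low held in the fit of all 24 libraries (0.87 and 0.79, adjusted p = 0.0159 and 0.0331) and without each library in turn. The call in old Siglec F-high cells was lost without any of 5 libraries and that between the old sorts without any of 5, with an adjusted p of up to 0.101 and 0.0998.

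Psmd12, another cap subunit, was at 50.1, 51.6, 48.2 and 46.6 CPM in young naive, 54.5, 50.8 and 51.0 CPM in young asbestos Siglec F-high and 72.4, 59.7, 57.1 and 60.9 CPM in young Siglec F-low libraries. The Siglec F-low libraries were above both other groups, by 0.35 ± 0.07 (adjusted p = 0.000622) and 0.26 ± 0.08 (adjusted p = 0.0298). The call between the young sorts was lost without Siglec F-high replicate 2 or 4 or Siglec F-low replicate 1 (adjusted p up to 0.124), with no filter on low counts, with only the groups compared, with the covariate given below and with all 24 libraries. In old mice it was at 53.2 to 57.8 CPM in naive and 57.9 to 66.1 CPM in Siglec F-low libraries, a difference of 0.16 ± 0.07 (adjusted p = 0.106). Psmd1, a large scaffold subunit of the base, was at 116, 105, 108 and 108 CPM in young naive and at 128, 108, 127 and 134 CPM in young Siglec F-low libraries, which overlapped (0.19 ± 0.06, adjusted p = 0.0166). In old mice it was at 124, 118, 116 and 121 CPM in naive, 133, 136 and 127 CPM in asbestos Siglec F-high and 136, 142, 141 and 138 CPM in Siglec F-low cells. The old Siglec F-low libraries were above both other old groups, by 0.21 ± 0.06 (adjusted p = 0.00765) from naive and 0.08 ± 0.06 (adjusted p = 0.532) from Siglec F-high cells. Old libraries did not overlap with young ones in any of the 3 settings for Psmd1, with differences of 0.14 ± 0.06, 0.21 ± 0.07 and 0.16 ± 0.06 and adjusted p-values of 0.18, 0.062 and 0.0998.

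Of the 6 cap ATPases, 3 were called in young Siglec F-low against young naive cells. Psmc1 was 0.31 ± 0.07 higher (adjusted p = 0.00164), Psmc3 0.23 ± 0.08 (adjusted p = 0.0279) and Psmc5 0.25 ± 0.07 (adjusted p = 0.0122). In old mice only Psmc1 was called, at 0.25 ± 0.07 (adjusted p = 0.0118), and a difference in response between the ages was not called for any member. Of the 11 other cap genes, 7 were called in young mice: Psmd8, Psmd12 and Psmd1, with Psmd2 (0.32), another scaffold subunit of the base, Psmd7 (0.28), a lid subunit, Psmd11 (0.15), a lid subunit, and Psmd14 (0.27), the lid's deubiquitinase. In old mice 3 were called, Psmd8, Psmd1 and Psmd2 (0.21). The largest cap level without regard to length was that of Psmd2, at 226 ± 10.8 CPM (SD, n = 4) in young naive and 281 ± 14.6 CPM (n = 4) in young Siglec F-low cells.

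**Figure D4:**
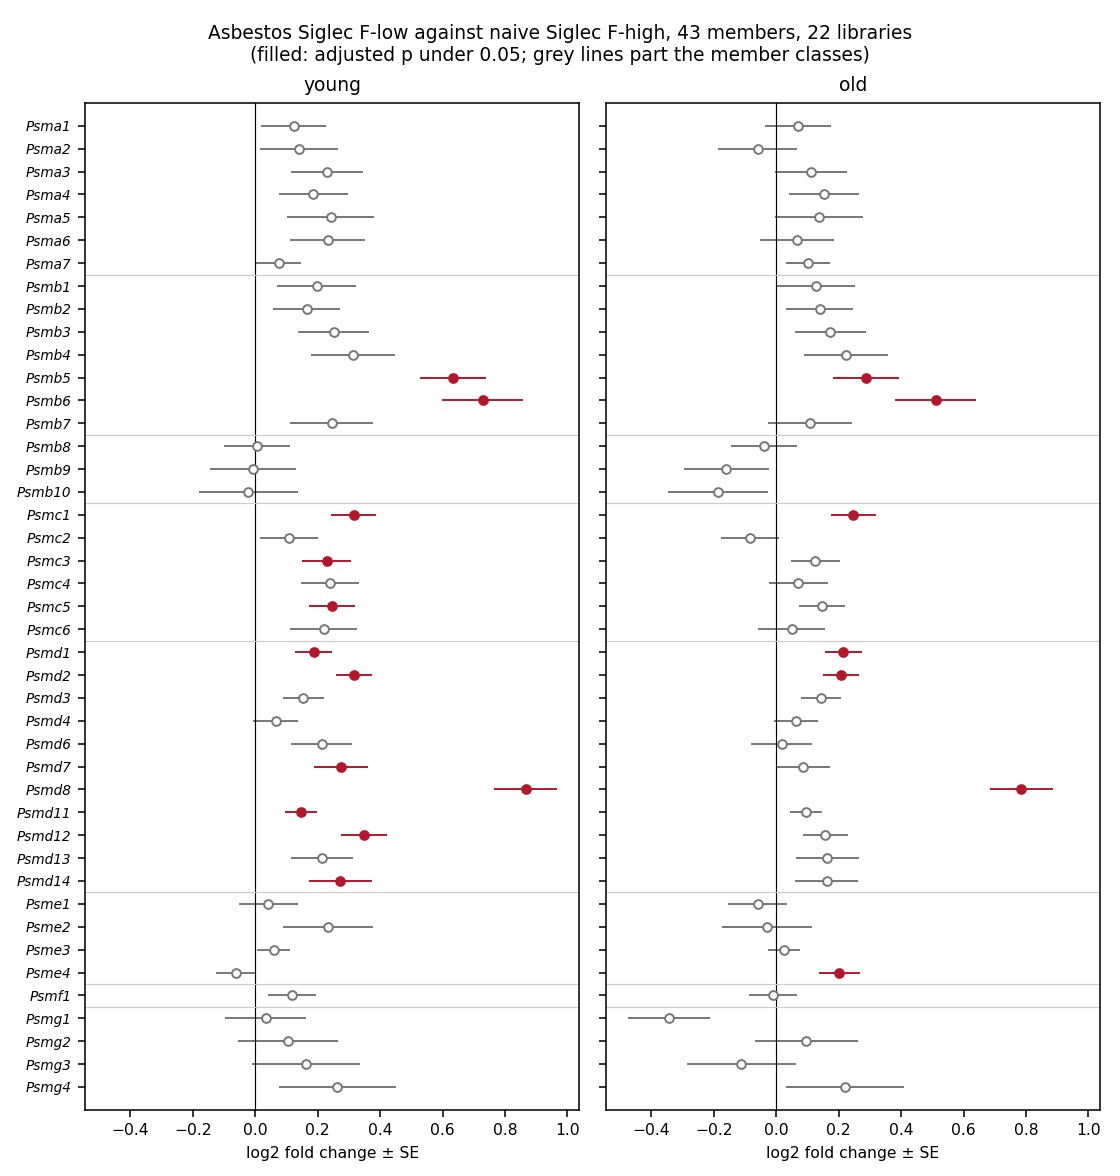
Log2 fold change ± SE (horizontal axis) of each of 43 members (vertical axis, by class) in asbestos Siglec F-low against naive Siglec F-high cells, in young (left) and old mice (right), from 22 libraries; filled points passed the adjusted p of 0.05. Of the members 12 are filled on the left and 7 on the right, Psmd8 is farthest from 0 on both sides (0.87 and 0.79), and the 3 induced catalytic genes lie between -0.19 and 0.01.

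Of the 4 activator genes 1 was called, in 1 comparison. Psme1 and Psme2 encode the subunits of PA28, which opens the core without ubiquitin. Psme1 was at 98.7 to 126 CPM in young naive, 103 to 129 CPM in old naive, 107 to 114 CPM in young and 112 to 131 CPM in old asbestos Siglec F-high, and 98.0 to 124 CPM in young and 101 to 117 CPM in old Siglec F-low libraries. Psme2 was at 69.3 to 122 CPM in young naive, 84.4 to 113 CPM in old naive, 86.7 to 101 CPM in young and 94.1 to 109 CPM in old asbestos Siglec F-high, and 83.3 to 124 CPM in young and 84.9 to 104 CPM in old Siglec F-low libraries. The groups overlapped for both genes. Psme3, which encodes the nuclear activator PA28 gamma, was at 97.0 to 111 CPM in all 22 libraries, and its differences lay between -0.02 and 0.06. Psme4, which encodes the activator PA200, was at 76.4, 71.4, 80.1 and 83.6 CPM in young naive and 73.9, 66.5, 70.7 and 71.8 CPM in old naive libraries. In old Siglec F-low libraries it was at 73.5, 79.1, 86.8 and 86.0 CPM, which overlapped with old naive, and the difference of 0.20 ± 0.07 was called (adjusted p = 0.0225), though not without old naive replicate 2 or old Siglec F-low replicate 3 or 4 (adjusted p up to 0.0797). Young asbestos Siglec F-low cells were -0.06 ± 0.07 from naive. Psmf1, the inhibitor PI31, was at 25.8 to 32.0 CPM in all 22 libraries and was called in no comparison.

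The 4 assembly chaperones, which help to build the alpha ring, had group means of 6.82 to 17.8 CPM, the lowest of the classes. None was called. The value nearest to a call was that of Psmg1 in old Siglec F-low against old naive cells, -0.34 ± 0.13 (adjusted p = 0.0506). It was at 10.9 to 14.4 CPM in old naive and 8.22 to 11.5 CPM in old Siglec F-low libraries, which overlapped.

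By comparison, old and young naive Siglec F-high cells had 0 of 43 members called by edgeR (8 at an unadjusted p under 0.05), 1 by DESeq2 and 4 by limma voom with sample weights on all 24 libraries, where 8.03% of all genes were called by edgeR. The members' median log2 fold change was 0.08, and 5.11% of all genes were called higher. Over all genes the median lay between -0.02 and 0.01 in each of the 9 comparisons. Old and young asbestos Siglec F-high cells had 0 called (4 unadjusted), 1 by DESeq2 and 1 by limma voom, with 7.32% of all genes called (4.84% higher) and a median of 0.08. Old and young Siglec F-low cells had 0 called (3 unadjusted), 1 by DESeq2 and 0 by limma voom, with 7.21% of all genes called (3.8% higher) and a median of -0.02. The asbestos response of young Siglec F-high cells had 0 called (4 unadjusted), 0 by DESeq2 and 4 by limma voom, with 5.06% of all genes called (3.48% higher) and a median of 0.06. That of old Siglec F-high cells had 1 called (Psmd8), with 3.16% of all genes called higher (4.12% in either direction) and a median of 0.06. All these shares of all genes are from edgeR on 22 libraries. The unadjusted counts and those of DESeq2 and limma voom stand without a share of all genes, so they do not set the members apart.

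Between the sorts 4 members were higher in Siglec F-low cells of young mice (Psmd8, Psmb6, Psmb5 and Psmd12), or 9.3% of members where 7.42% of all genes were called higher (12% in either direction), and 1 (Psmd8) in old mice, where 6.3% of all genes were (11.6% in either direction). With replicate number as a block the count between the old sorts was 2, and that between the young sorts also rose, as given below. The members' median was 0.14 in young and 0.04 in old mice. Against naive cells the median was 0.21 in young and 0.11 in old mice. The 2 interactions with age gave 0 called members and 0 at an unadjusted p under 0.05, and 0 by DESeq2 and limma voom. By edgeR on 22 libraries 0.0147% of all genes were called in each. Comparisons that use the same naive or Siglec F-low libraries are not independent of each other.

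The count in young mice rested on single libraries. Without young naive replicate 2 it was 29 of 43 in place of 12 for Siglec F-low against naive cells, and 4 in place of 0 (Psmb5, Psmb8, Psmb9 and Psmc2) for old against young naive cells. Without young Siglec F-low replicate 1 it was 7, and without young naive replicate 4 it was 8. The shares of all genes called in these fits are not given here, so the counts do not set the members apart from other genes. Young naive replicate 2 had the fewest genes with a count of the 22 libraries, 17069, and its members were on average 0.28 above their group mean on the log2 scale. Psmd8, Psmb5, Psmb6, Psmc1, Psmd2 and Psmd12 were called there without any single library, and Psmd8, Psmb6, Psmc1, Psmd1 and Psmd2 likewise in old mice. Each of the other calls in these comparisons was lost without at least 1 library.

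Within groups the members varied together. Taken as deviations from the group mean over 22 libraries, 36 of 43 members had a Pearson coefficient above 0.5 with the mean of the other members. It was highest for Psmb1, at 0.97, and lowest for Psme4, at -0.52, with Psmd1 at -0.24 and Psmf1 at 0.05. The coefficient tended to be lower for longer transcripts (Spearman -0.33 over 43 members). It was not taken for genes outside the members, so the count of 36 does not set the members apart from other genes. The members' mean deviation fell as the number of genes with a count rose, with a Pearson coefficient of -0.859 and a Spearman coefficient of -0.72 over 22 libraries, and -0.754 without the 2 libraries farthest from the median. Both measures come from the same libraries and share their depth. A fit with the number of genes with a count as a covariate, chosen after seeing the data, called 8 members in young and 13 in old Siglec F-low against naive cells. The share of all genes called in that fit is not given here, so these counts stand without a background.

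**Figure D5:**
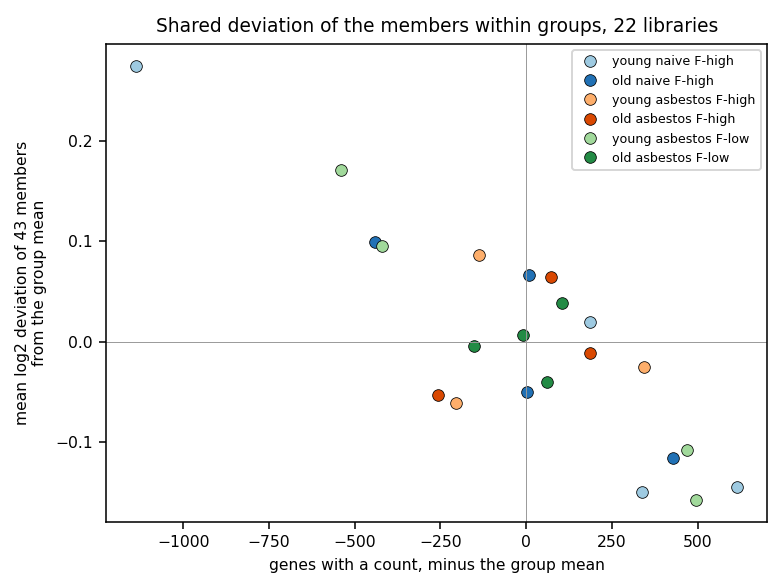
Mean log2 deviation of the 43 members from their group mean (vertical axis) against the number of genes with a count, minus the group mean (horizontal axis), for 22 libraries coloured by group. The points fall from upper left to lower right (Pearson -0.859), and the point farthest to the upper left is young naive replicate 2, at 0.28.

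The 2 poor libraries moved the members in opposite directions. In the young one 38 of 43 members were above the other 3 libraries' mean, at a median of 2.59 times that mean and a range of 0.307 to 8.06 times. Psmb10 was the highest (669 CPM against 83.0) and Psme3 the lowest (32.0 against 104). In the old one 42 of 43 were below, at a median of 0.534 times the mean, and only Psme4 was above (118 against 79.4). Over the members this ratio varied with transcript length, with a Spearman coefficient of -0.35 in the young and 0.41 in the old library. The share of all genes above or below in these libraries is not given here. The counts of 38 and 42 therefore do not set the members apart from other genes. With both libraries in the fit the members' median was -0.53 in place of 0.08 for old against young asbestos Siglec F-high cells, 0.59 in place of 0.06 for the asbestos response of young cells and -0.28 in place of 0.14 between the young sorts. Psmb5 and Psmb6 then changed direction between the young sorts, to -0.12 (adjusted p = 0.824) and -0.31 (adjusted p = 0.651). With 24 libraries the test called Psmd8 in both comparisons of Siglec F-low with naive cells, where 12.4% (young) and 10.5% (old) of 13467 genes were called, and no other member in any comparison. Of all genes it called 2.03%, 4.76% and 1.29% between ages (naive, asbestos Siglec F-high, Siglec F-low), 1.9% and 0.78% between asbestos and naive Siglec F-high cells (young, old) and 4.99% and 4.3% between the sorts (young, old).

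Other genes of the pathway were taken from lists chosen with earlier results of these data known. Their counts stand beside 18.3% (young) and 15.9% (old) of all genes called higher in Siglec F-low against naive cells and 5.11% in old against young naive cells. Of 12 further proteasome genes tested, 4 were higher in young Siglec F-low against naive cells, Txnl1 (0.40 ± 0.08, adjusted p = 0.00062), a redox protein of the cap, Psmd10 (0.45), Psmd9 (0.37), both cap assembly chaperones, and Pomp (0.32), the core maturation factor, and 2 in old mice, Txnl1 (0.33) and the ubiquitin receptor Adrm1 (0.25). Of 12 regulators, Nfe2l1, which encodes a transcription factor of proteasome genes, was not called (0.08 and 0.04), nor was Nfe2l2 (-0.06 and -0.20). Vcp, the segregase that feeds substrates to the proteasome, was higher in both (0.29 and 0.20), and Nlrc5, a transactivator of MHC class I genes, was higher in both (0.76 and 0.57), between the sorts (0.49 in young and 0.68 in old) and in old against young naive cells (0.57 ± 0.11, adjusted p = 0.000993). Irf1 was lower in young Siglec F-low cells (-0.36). Of 17 ubiquitin and shuttle genes 2 were higher and 1 lower in young and 2 higher and 2 lower in old mice.

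Of 9 class I antigen processing genes, 6 were higher in young and 7 in old Siglec F-low against naive cells, and 3 were higher in old than in young naive cells, where 18.3%, 15.9% and 5.11% of all genes were called higher. H2-K1, a class I heavy chain, was at 738 to 915 CPM in young naive, 958 to 1224 CPM in old naive, 1206 to 1414 CPM in young and 1519 to 1633 CPM in old Siglec F-low libraries. Its difference from naive was 0.62 in young (adjusted p = 2.03e-06) and 0.54 in old Siglec F-low cells (adjusted p = 1.35e-05), and 0.35 between old and young naive cells (adjusted p = 0.0058). Tap1, the peptide transporter beside Psmb9, was higher in 5 comparisons, by 0.35 in old against young naive cells. The Psmb9 and Tap1 exons share 212 bases on opposite strands, so without a stated strand setting reads there cannot be told apart. Of 12 type I interferon genes 3 were higher in young and 6 in old Siglec F-low against naive cells, among them Oasl2 (1.65 and 1.72) and Rsad2 (2.67 and 1.78). Both were at low levels. Oasl2 was at 0.928 to 1.63 CPM in young naive and 2.90 to 5.36 CPM in young Siglec F-low libraries. Rsad2 was at 0.270 to 0.708 and 1.35 to 4.70 CPM there, and ran from 0.239 to 1.93 CPM within the old naive group.

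Cell type markers also moved with the sorts. The summed level of 10 monocyte-derived macrophage markers was 917 to 1045 CPM in young naive and 1721 to 2063 CPM in young Siglec F-low libraries, and 860.0 to 1247 CPM in old naive and 2543 to 3322 CPM in old Siglec F-low libraries. The summed level of 10 resident markers was 16440 to 21790 CPM in young naive and 38420 to 50500 CPM in young Siglec F-low libraries, and most of it was Chil3 (11186 to 15604 and 32654 to 44267 CPM). The other resident markers went both ways between young Siglec F-low and young naive libraries. Lower were Siglecf (250.1 to 309 against 519.8 to 651 CPM), Cidec (162 to 217 against 444 to 517 CPM), Krt79 (297 to 364 against 548 to 866 CPM) and Ear2 (868 to 1160.0 against 1173 to 1773 CPM). Higher were Car4 (882 to 1179 against 299 to 630 CPM), Fabp4 (188 to 347 against 36.3 to 96.1 CPM) and Itgax (2225 to 2330 against 1553 to 1769 CPM). Marco (435 to 666 against 128 to 644 CPM) and Pparg (195 to 267 against 163 to 208 CPM) overlapped. Of 6 neutrophil markers the sum was 32.2 to 40.7 CPM in young naive and 84.8 to 92.3 CPM in young Siglec F-low libraries, and Ly6g was at 0 in every group but old Siglec F-low. The 9 B cell markers summed to 245 to 275 CPM in young naive and 316 to 474 CPM in old naive libraries. The part of these cell types in the proteasome values was not tested.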

How the data were processed

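The libraries were poly(A) RNA-seq of sorted mouse lung macrophages. The authors deposited 1 table of whole-number counts per gene and library, made, per the submitters' processing notes, with bcl2fastq 2.19.1, FastQC, Trimmomatic 0.36, STAR 2.6.0 and HTSeq 0.11.2 on mm10. The annotation and the strand setting are not given in the sources used here, and 12 members share exon bases with another gene. Among them are Psmb5 (12.1% of exon bases), Psmb7 (11.8%) and Psmb8 (14.7%). Named pseudogenes exist for 3 members, Psmb5 (1), Psmb6 (2) and Psmb7 (1). How far these affect the counts and the ratios of the catalytic pairs was not tested. Gene positions and lengths were taken from GENCODE M21.

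The main fit was edgeR 4.0.16 (R 4.3.3) quasi-likelihood on 22 libraries, with TMM scaling, filterByExpr (minimum count 10, minimum total 15), 1 term per group and Benjamini-Hochberg adjustment over 13629 genes. The procedure was tested on simulated data. All 24 libraries, limma 3.58.1 voom with sample weights, DESeq2 1.42.0, relative log expression factors, no filter, only the groups compared, a replicate block and each library left out were the alternatives. Deviations of same-numbered libraries had Pearson coefficients of 0.15, 0.19 and 0.205 between the old asbestos sorts, each above 0.1. In the young asbestos sorts the coefficients were 0.319, 0.0854 and 0.234. Between naive and asbestos groups, which are different mice, single coefficients reached 0.179 (young naive with young asbestos Siglec F-high, replicate 1). The coefficients therefore do not show which libraries came from the same mice. The rule was to give values by library for the catalytic pairs, the activators, Psmf1 and, in each comparison, up to 3 called members of smallest p. Psmb7, Psmb9, Psmb10, Psme1, Psme2, Psme3 and Psmf1 are given mostly as ranges instead. Levels of Psmb7 and Psme4 are given for some groups only. Genes named from the other lists were chosen after their values were seen. The members and lists were chosen with earlier results of these data known. The result of 1 gene of these lists is not reported here.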

Additional observations from a re-analysis of the deposited data

Results flagged for a closer look

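In 4 of 104 sets of 4 libraries examined, 1 library lay far from the other 3 by Dixon's 95% critical value, which chance passes in about 1 in 20 sets. The log2 ratio of Psmb8 to Psmb5 was 0.546 in old Siglec F-low replicate 4 and at least 0.72 in the others of its group. The log2 ratio of Psmb10 to Psmb7 was 0.294 in old naive replicate 2, and the lowest of that group was 0.0729. Psmb10 was at 138.1 CPM in young naive replicate 2 and at 74.9 to 79.7 CPM in the other young naive libraries. Psme3 was at 111.1 CPM in young naive replicate 1 and at 97.0 to 99.2 CPM in the others.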

How the results depend on the processing

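With all 24 libraries the count of members called was 0 for old Siglec F-high cells after asbestos and between the sorts in both ages, and 1 for Siglec F-low against naive cells in both ages; Psmb5 and Psmb6 changed direction between the young sorts (-0.12 and -0.31). Limma voom on 24 libraries gave 4 and 1 between ages in naive and asbestos Siglec F-high cells, 4 for the young asbestos response, 2 between the old sorts and 27 for young Siglec F-low against naive cells. DESeq2 gave 1 in each of the 3 comparisons of age, and no filter gave 1 between ages in naive cells. A fit of only the groups compared gave 2 between ages in asbestos Siglec F-high cells and 7 for young Siglec F-low against naive cells. The covariate gave 2, 1 and 1 between ages (naive, asbestos Siglec F-high, Siglec F-low), 2 and 3 between the young and old sorts and 13 for old Siglec F-low against naive cells. With the replicate block the counts were 4 and 3 between ages in naive and asbestos Siglec F-high cells, 7 and 2 between the young and old sorts and 20 for young Siglec F-low against naive cells. Same-numbered libraries had Pearson coefficients of 0.15 to 0.205 between the old sorts and of 0.0854 to 0.319 between the young sorts. Leaving out each library gave 0 to 4 and 0 to 1 between ages in naive and asbestos Siglec F-high cells, 0 to 1 for old cells after asbestos, 1 to 4 and 0 to 1 between the young and old sorts and 7 to 29 for young Siglec F-low against naive cells. The cause of these shifts was not tested. Apart from the fit of all 24 libraries, these settings are given without the share of all genes they called. Their counts therefore do not set the members apart from other genes. Besides these counts, 117 fold changes were followed: those of the catalytic pairs, activators and Psmf1 in the 9 comparisons and of other members where they were called, so calls gained by the remaining members show in the counts alone. Over all alternatives 3399 of these values kept direction and side of the threshold, 84 lost the call, 25 gained one and 2 reversed. Chaperone genes and the old poor library have the lowest counts and so the least precision.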
